A study of Mus musculus with 2 samples.

Results

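Open chromatin of the neonatal mouse heart was followed at 7 marker genes of vascular smooth muscle cells and pericytes: Acta2 (ENSMUSG00000035783), Tagln (ENSMUSG00000032085), Myh11 (ENSMUSG00000018830), Cnn1 (ENSMUSG00000001349), Pdgfrb (ENSMUSG00000024620), Rgs5 (ENSMUSG00000026678) and Notch3 (ENSMUSG00000038146). All peaks that the deposited table annotates to one of these 7 Ensembl genes were taken, which gave 19 of 83549 peaks, 7 within 1000 bp of an annotated transcript start (promoter peaks) and 12 farther away (distal peaks). The table carries Ensembl IDs without symbols, so the symbols are those supplied with the list of members, and the chromosome of each of the 6 genes with a peak is the one that RefSeq (GRCm38.p6) gives for that symbol. Accessibility was read by ATAC-seq on heart nuclei of mice aged 4 days, where the Tn5 enzyme inserts adapters into exposed DNA. The control library came from 7 pooled Wtapflox/flox mice, whose Wtap gene is flanked by loxP sites, and the other from 6 pooled Wtap-CKO mice, in which Wtap is deleted in cardiomyocytes. Wtap belongs to the complex that methylates adenosine in RNA, and the design asks how its loss alters chromatin accessibility in the heart. The labels used here name neither the promoter that drives the recombinase, nor the strain, nor the sex of the animals. Loss of Wtap itself was not checked here, since no ID in the table is paired with that symbol. Smooth muscle cells and pericytes are not cardiomyocytes, so by the labelled design they keep Wtap in both groups.

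There was 1 library per genotype, so no test between genotypes was possible, no p-value is given, and each difference is one between 2 pools. Reads in peaks came to 9835753 in Wtapflox/flox and 9816384 in Wtap-CKO, with medians of 64 and 67 reads per peak. Levels are given as counts per 1000000 reads in peaks (CPM), and each log2 ratio is Wtap-CKO over Wtapflox/flox after adding 0.5 CPM. The 95% interval beside a ratio is an exact binomial (Clopper-Pearson) interval of the counts and covers counting error only. All 19 peaks passed the signal floor, the 25th percentile of mean CPM over all peaks (3.92). The authors' own scaling shifts the ratios by a median of -0.22. The labelled tissue was not checked against cardiac markers, since their symbols could not be tied to IDs. In pooled whole tissue, fewer cells of a type and less open chromatin per cell cannot be told apart.

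Vascular smooth muscle cells wrap arteries and contract through smooth muscle actin and myosin, while pericytes sit along capillaries, and together they are called mural cells. Acta2 encodes smooth muscle alpha-actin, Myh11 the smooth muscle myosin heavy chain, Tagln (SM22 alpha) an actin-binding protein and Cnn1 calponin, which binds actin and tunes contraction. These contractile genes are classic targets of SRF, which binds the CArG box and works with the coactivator myocardin. Pdgfrb is the receptor through which PDGF-B from endothelium recruits mural cells, Notch3 is a Notch receptor needed for arterial smooth muscle, and Rgs5 is a pericyte regulator of G-protein signalling. Acta2 and Tagln are also expressed for a time in embryonic cardiomyocytes.

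The start regions of Acta2, Cnn1 and Notch3 are shown because these 3 genes held the 4 member peaks that were lower in Wtap-CKO beyond counting error. The windows run 5′ to 3′ from 250 bases before to 50 bases after the start in RefSeq (GRCm38.p6). Those of 4 of the 7 genes are described (Rgs5 is the other). Pdgfrb was left out of the description, and no window was found for Tagln or Myh11. The lower Cnn1 peak, 2877 bp before the start, and the lower Acta2 peak 9995 bp before its start lie farther out than these windows reach. Capitals mark CArG boxes with 1 C or G in the A/T core and the RBPJ core TGGGAA, through which Notch signals act, searched on both strands. The Acta2 window lies on the minus strand (chr19:34255324-34255623), the Cnn1 window on the plus strand (chr9:22099003-22099302) and the Notch3 window on the minus strand (chr17:32166841-32167140).
Acta2: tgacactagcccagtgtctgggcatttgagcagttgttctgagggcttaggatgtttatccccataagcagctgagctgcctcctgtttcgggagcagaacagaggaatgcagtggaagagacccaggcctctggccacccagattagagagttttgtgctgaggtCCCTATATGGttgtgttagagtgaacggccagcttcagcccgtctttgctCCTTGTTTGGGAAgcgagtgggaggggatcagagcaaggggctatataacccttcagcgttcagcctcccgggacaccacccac
Cnn1: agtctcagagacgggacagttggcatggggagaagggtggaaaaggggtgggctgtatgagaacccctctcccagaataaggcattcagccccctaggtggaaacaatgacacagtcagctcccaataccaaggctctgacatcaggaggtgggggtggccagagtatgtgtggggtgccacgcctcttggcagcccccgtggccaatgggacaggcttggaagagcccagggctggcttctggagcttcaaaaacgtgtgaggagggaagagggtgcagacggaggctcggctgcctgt
Notch3: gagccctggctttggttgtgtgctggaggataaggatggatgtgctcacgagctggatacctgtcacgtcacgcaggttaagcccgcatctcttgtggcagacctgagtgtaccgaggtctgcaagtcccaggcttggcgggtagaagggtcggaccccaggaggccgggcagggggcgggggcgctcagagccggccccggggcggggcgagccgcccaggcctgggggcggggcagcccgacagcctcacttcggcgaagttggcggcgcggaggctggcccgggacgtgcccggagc

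Among the 4 windows described, CArG-like letters were found in that of Acta2. It held CCCTATATGG from -84 to -75 and CCTTGTTTGG from -34 to -25, counted from the start, and the latter overlapped a TGGGAA from -27 to -22. Of all 32851 windows of that length, 8.5% hold a CArG box with 1 C or G in the core, 1.63% one with none and 25.6% the RBPJ core. The windows of Cnn1, Notch3 and Rgs5 held neither of the first pair nor the RBPJ core. The E-box CANNTG, found in 72.3% of windows, occurred 3 times for Acta2, once each for Cnn1 and Rgs5, and not for Notch3. The Notch3 window was rich in CpG, with 25 CG pairs against a median of 7 over all windows, whereas Acta2, Cnn1 and Rgs5 each held 6. The windows and the peaks are on different builds, so motifs were not placed inside peaks.

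Promoter peaks of these genes were of ordinary strength for this heart chromatin. In Wtapflox/flox their signal per kb of peak had a median of 26.2 CPM, against 28.4 over all 22815 promoter peaks, and in Wtap-CKO it was 32.7 against 27.9. On this per-length scale the control order was the outer Acta2 start (45.0), the Tagln upstream peak (35.5), Myh11 (33.2), Notch3 (26.2), Pdgfrb (22.3), the inner Acta2 start (18.5) and the Tagln start (15.3). In Wtap-CKO the Tagln upstream peak came first (51.1) and Notch3 last (15.6). By the 1000 bp rule Cnn1 had no promoter peak, and Rgs5 had no peak of either class, so neither gets a promoter value. The deposited annotation is wider. It names the Cnn1 peak 2877 bp before the start Promoter (2-3kb) and an Acta2 peak 1393 bp past a start Promoter (1-2kb), both counted as distal here.

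**Figure D1:**
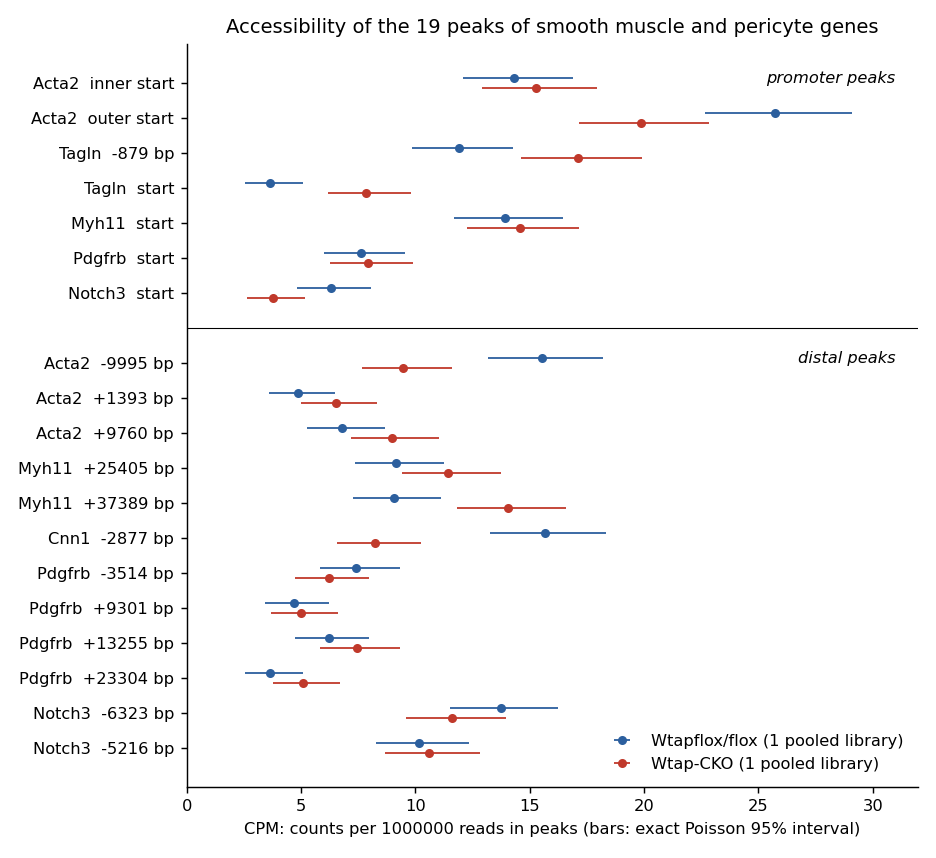
Signal of each member peak in CPM in the Wtapflox/flox and Wtap-CKO libraries, with exact Poisson 95% intervals of the counts; promoter peaks stand above the line and distal peaks below, labelled by distance to the nearest annotated start. By ratio the pairs stand farthest apart at the Tagln start (3.66 and 7.84 CPM) and at the Cnn1 peak (15.7 and 8.25 CPM).

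Among the contractile genes, the outer Acta2 promoter peak was lower in Wtap-CKO and both Tagln promoter peaks were higher. Acta2 has annotated starts 1360 bp apart with a peak over each. The outer one (chr19:34232586-34233157, GRCm39), the strongest promoter peak of the set, held 253 reads in Wtapflox/flox and 195 in Wtap-CKO, or 25.7 and 19.9 CPM. It was lower in Wtap-CKO, with a log2 ratio of -0.36 (interval -0.65 to -0.10). The inner one (chr19:34231563-34232337) held 141 and 150 reads, a ratio of 0.09 (-0.25 to 0.43) that counting error alone spans. Summed over both, Acta2 promoter reads gave -0.19 (-0.40 to 0.02).

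Tagln was higher in Wtap-CKO at both of its promoter peaks. The peak over its start (chr9:45847242-45847481) held 36 reads in Wtapflox/flox and 77 in Wtap-CKO, or 3.66 and 7.84 CPM, and the authors called it in Wtap-CKO only. Its log2 ratio was 1.004 (0.51 to 1.71), which put it just past the 2-fold mark and made it the only member peak there. The stronger peak 879 bp upstream (chr9:45848235-45848569) held 117 and 168 reads, a ratio of 0.51 (0.18 to 0.88). Together they gave 0.67 (0.38 to 0.98). In the authors' deposited table the upstream peak is 0.30. Its lower bound of 0.18 is smaller in size than the median shift of that scaling (-0.22), so its separation from 0 depends on scaling. Myh11 was about level at its start (chr16:14109067-14109486), with 137 reads in Wtapflox/flox, 143 in Wtap-CKO and a ratio of 0.06 (-0.28 to 0.41).

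At the receptor genes, the Notch3 start was lower in Wtap-CKO. The Notch3 start (chr17:32385790-32386030) held 62 reads in Wtapflox/flox and 37 in Wtap-CKO, a ratio of -0.67 (-1.37 to -0.13), and was called in Wtapflox/flox only. The Pdgfrb start (chr18:61178177-61178518) held 75 and 78 reads, a ratio of 0.06 (-0.42 to 0.54). The interval for Pdgfrb allows a difference of either sign.

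**Figure D2:**
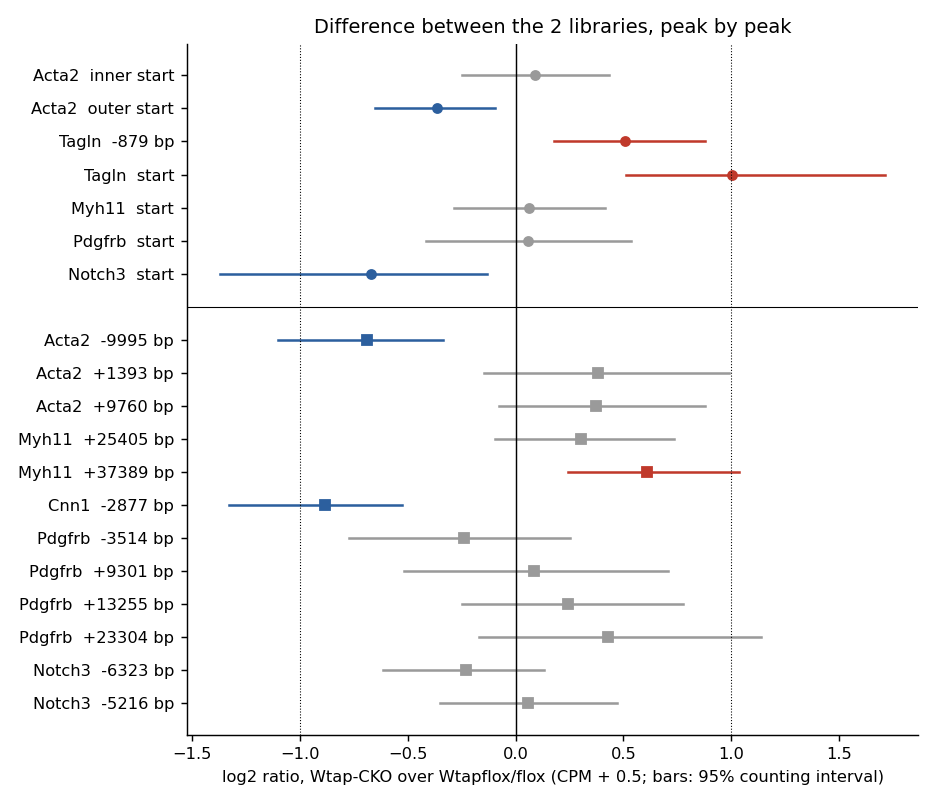
Log2 ratio of each member peak with its 95% counting interval; red and blue mark intervals wholly above and below 0, grey those that span 0, and dotted lines the 2-fold marks. Of 19 peaks, 3 lie above 0 and 4 below with their whole interval, and the Tagln start reaches the upper 2-fold mark (1.004).

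Across both classes the counting interval lay above 0 for 3 of the 19 peaks (19.5% of all peaks over the floor) and below 0 for 4 (18.3%), and it spanned 0 for 12. Ratios were above 0 for 13 peaks and below for 6, whereas the log2 values in the authors' deposited table were above 0 for 8 and below for 11, so the sign of the small ratios depends on scaling; the starts of Myh11 (-0.15) and Pdgfrb (-0.16) and the inner Acta2 start (-0.12) are among those that change sign there. As a set, the promoter peaks showed no common direction. Their summed reads were 821 in Wtapflox/flox and 848 in Wtap-CKO, a log2 ratio of 0.05 (-0.09 to 0.19) that is -0.17 by the authors' RPM, and their median ratio was 0.06 against -0.06 for all promoter peaks over the floor. Of the 7, 1 was at least 2-fold higher (1.38% of all promoter peaks were) and 0 at least 2-fold lower (0.841%). The counting interval lay above 0 for 2 of 7 (13.7% of all) and below 0 for 2 of 7 (22.5%). Leaving out Tagln moved the summed ratio to -0.14 (-0.31 to 0.02), and leaving out Acta2 moved it to 0.24 (0.05 to 0.43). The authors called 5 of the 7 in both libraries, against 77.7% of all promoter peaks.

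**Figure D3:**
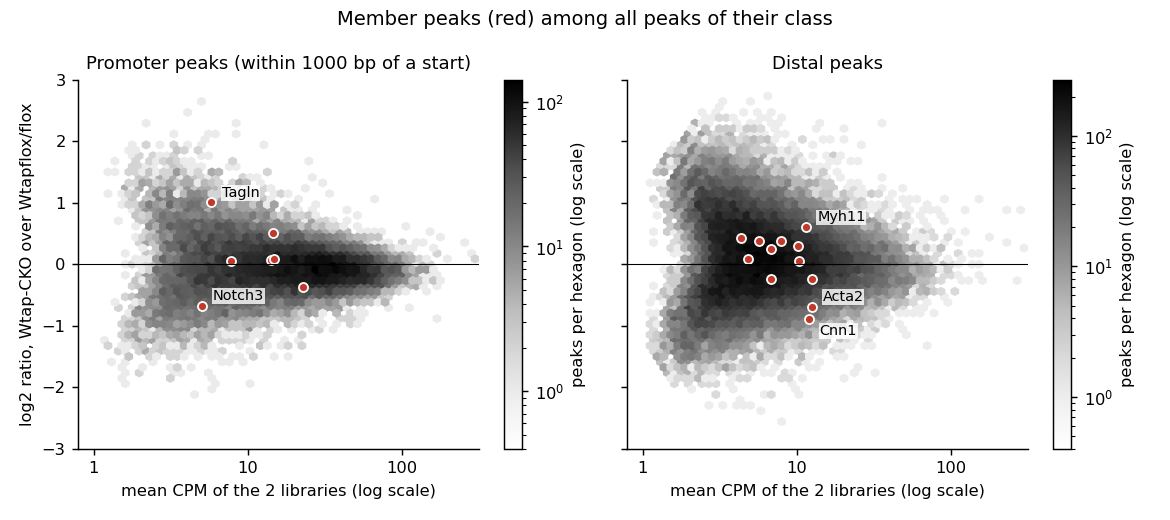
Log2 ratio against mean CPM for promoter peaks and for distal peaks; grey shading counts all peaks, of which a few lie beyond the axes, and red points are the 7 promoter and 12 distal member peaks. The members lie inside the cloud of peaks of like signal, with the Tagln start (1.004) near its upper side and the Cnn1 peak (-0.88) near its lower side.

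The distal peak nearest Cnn1 showed the lowest ratio of the set. This peak, 2877 bp before the Cnn1 start (chr9:22007287-22007635), is the only one annotated to the calponin gene. It held 154 reads in Wtapflox/flox and 81 in Wtap-CKO, or 15.7 and 8.25 CPM, a log2 ratio of -0.88 (-1.33 to -0.53). In the control library its signal per kb exceeded that of 94.3% of distal peaks, and in Wtap-CKO that of 69.9%. The nearest peaks on either side, over the starts of other genes, held 250 and 248 reads (ratio -0.01) and 152 and 194 reads (0.34).

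Acta2 had distal peaks of both signs. The peak 9995 bp before its nearest start, between genes (chr19:34242985-34243565), held 153 reads in Wtapflox/flox and 93 in Wtap-CKO, a ratio of -0.69 (-1.10 to -0.33). Inside the gene, the peak 1393 bp past the inner start held 48 and 64 reads (0.38, -0.14 to 0.99), and the one in intron 7 of 8 held 67 and 88 (0.37, -0.08 to 0.88). The upstream peak was lower in Wtap-CKO beyond counting error and the others were not separated from 0.

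Of the intron peaks annotated to Myh11, the one in intron 4 was higher in Wtap-CKO beyond counting error and the one in intron 3 was not separated from 0. The peak in intron 4 of 40 (chr16:14071458-14071838) held 89 reads in Wtapflox/flox and 138 in Wtap-CKO, a ratio of 0.61 (0.24 to 1.04). The one in intron 3 held 90 and 112 reads, a ratio of 0.30 (-0.09 to 0.74). Together they gave 0.47 (0.20 to 0.77), against 0.06 at the start of the same gene, and the difference between intron and start was not tested.

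None of the distal peaks of the receptor genes was separated from 0 beyond counting error. The 4 Pdgfrb peaks held between 36 and 73 reads in Wtapflox/flox and between 49 and 73 in Wtap-CKO, with ratios from -0.24 at 3514 bp before the start to 0.43 in intron 9 of 22, and their sum was 0.11 (-0.16 to 0.39). Notch3 had a peak 6323 bp before its start with 135 and 114 reads (-0.23, -0.61 to 0.13) and one over exon 24 of 33 with 100 and 104 (0.06, -0.35 to 0.47). All 6 intervals spanned 0.

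Over all 12 distal peaks the reads were 1052 in Wtapflox/flox and 1027 in Wtap-CKO, a ratio of -0.03 (-0.16 to 0.09). None was 2-fold higher (4.53% of all distal peaks were) or 2-fold lower (1.75%). The interval lay above 0 for 1 of 12 (22.3% of all) and below 0 for 2 of 12 (16.2%). The median ratio was 0.16, against 0.05 for all distal peaks over the floor. The authors called 7 of the 12 in both libraries, against 55% of all distal peaks. Without the Cnn1 peak the summed ratio was 0.08 (-0.06 to 0.21).

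The distal peaks sorted by place, a split made after their values were seen and therefore given without a test. The 8 peaks inside a member gene all had ratios above 0, from 0.06 to 0.61, where 53.7% of distal peaks inside genes did. The 4 distal peaks before a member's start all had ratios below 0, from -0.88 to -0.23, where 44.8% of such peaks did. The whole interval lay above 0 for only 1 of the 8 and below 0 for 2 of the 4. The Tagln peak 879 bp before its start, a promoter peak and so outside this split, was above 0 (0.51, 0.18 to 0.88). By the log2 values in the authors' deposited table, 6 of the 8 were above 0 and 4 of the 4 below. A further peak lies in each of Myh11 (intron 9) and Notch3 (exon 33) but is annotated to a nearer start of another gene. The former held 36 and 40 reads (0.14, -0.53 to 0.85) and the latter 204 and 167 (-0.28, -0.59 to 0.02), so the Notch3 one departs from the pattern.

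**Figure D4:**
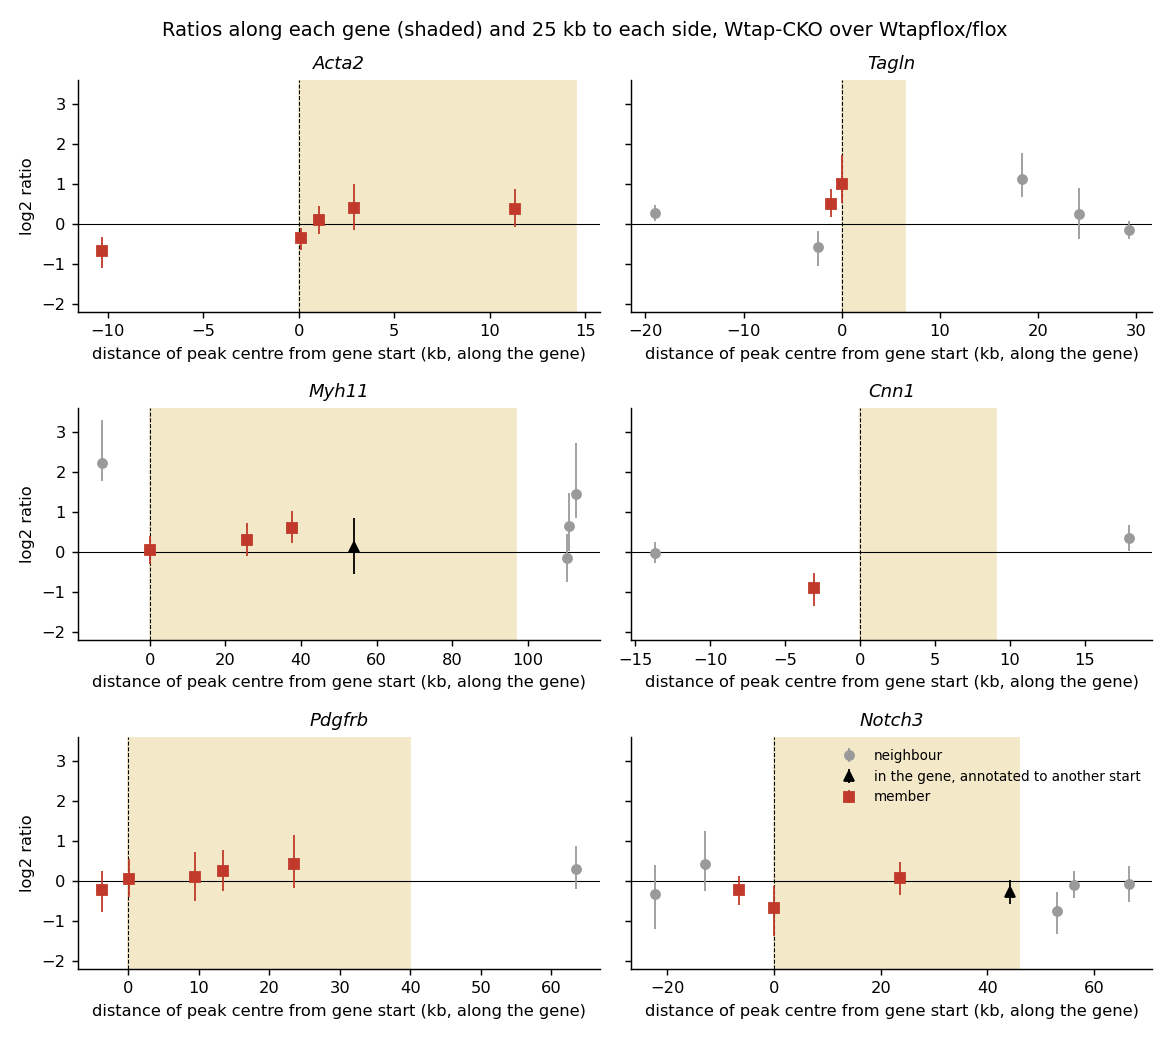
Log2 ratio with 95% counting interval against distance of the peak centre from the outermost annotated start, in kb along the gene, for the 6 genes with peaks; shading spans the gene, red squares are member peaks, black triangles peaks in the gene annotated elsewhere and grey circles neighbours within 25 kb of the gene. Red squares before the start of Acta2, Cnn1, Pdgfrb and Notch3 lie below 0 (-0.88 to -0.23), and those beside Tagln lie above it (0.51 and 1.004).

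Wider lists of genes were described through the Gene Ontology (GO) terms in the table, since none of the further symbols listed could be tied to an ID. Of 30 other genes annotated to smooth muscle contraction, vascular smooth muscle or pericytes, 19 had promoter signal over the floor, with a median ratio of -0.11, against -0.05 over all 15006 such genes. None was 2-fold higher (0.813% of all genes were) or lower (0.573%). The interval lay above 0 for 3 and below 0 for 4 of the 19 (13% and 23.8% of all genes). The highest was ENSMUSG00000005611, a gene of cGMP signalling and vascular smooth muscle relaxation, with 98 reads in Wtapflox/flox and 131 in Wtap-CKO (0.40, 0.03 to 0.81). The lowest was ENSMUSG00000042323, a chromatin remodelling gene with a role in heart vessel development, with 337 and 258 (-0.38, -0.62 to -0.14).

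Distal signal of the same list was over the floor for 23 genes, with a median of 0.08 against 0.07 for all genes. One, the serotonin receptor gene ENSMUSG00000070687, was 2-fold higher (2.69% of all genes were), with 52 and 120 reads over 2 peaks (1.14, 0.73 to 1.71), and 0 were 2-fold lower (0.699%). The lowest was ENSMUSG00000031755, a cilium gene of the BBSome with a term for artery contraction, with 64 and 31 reads (-0.94, -1.71 to -0.40).

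Genes of the signalling pathways of the receptors were read against the same background over all genes, a median promoter ratio of -0.05, intervals above 0 for 13% and below 0 for 23.8%, and 0.813% of genes 2-fold higher and 0.573% lower. For 23 genes of PDGF receptor signalling the median promoter ratio was -0.11, with intervals above 0 for 3 and below 0 for 8, and 0 were past 2-fold. They ran from the MAPK and angiogenesis gene ENSMUSG00000031714 (1055 and 780 reads, -0.43) to the clathrin adaptor gene ENSMUSG00000033855 (317 and 402, 0.34), which was also highest by distal signal (0.72). The lowest of the 17 genes with distal signal over the floor was the transcription factor gene ENSMUSG00000019947 (-0.13). For 47 Notch pathway genes the median promoter ratio was -0.10, with intervals above 0 for 2 and below 0 for 14, and 0 were past 2-fold. They ran from the ubiquitin ligase gene ENSMUSG00000034413 (141 and 72 reads, -0.92) to the glutathione-degrading, Notch-binding enzyme gene ENSMUSG00000027313 (38 and 54, 0.46). The interval of the former lay below 0 (-1.40 to -0.55) and that of the latter spanned 0 (-0.12 to 1.15). By distal signal 2 of 39 Notch pathway genes were 2-fold higher (2.69% of all genes were) and 0 lower (0.699%), from -0.66 for ENSMUSG00000035203 to 1.24 for ENSMUSG00000001036, both of clathrin-mediated endocytosis.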

How the data were processed

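ATAC-seq libraries of both genotypes, 1 each, were compared, with groups taken from the labelled genotype. Tools listed in the submitters' processing notes, with no roles, are BWA 0.7.12, HOMER 4.11, fastp 0.20.0, ChIPseeker and MACS2 2.1.0, and the build is GRCm39; how Tn5 offsets, duplicates and the peak threshold were handled is not stated there. The counts deposited by the authors are whole reads per merged peak, unscaled. The RPM values that the authors deposited and the log2 ratio in their table follow another library total, and the fold enrichment (ratio) deposited by the authors was not used. The distance to the nearest start, per the file headers, splits promoter from distal peaks at 1000 bp. Calls use a 2-fold difference among peaks at or above a mean of 3.92 CPM, about 38.5 reads. Unremoved duplicates would make the counting intervals too narrow. Ratios and intervals were computed with Python 3.11.15, numpy 2.4.6, pandas 2.3.3 and scipy 1.17.1, checked on simulated counts.

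Members, lists and tests were chosen with earlier results of these data known. The rule for named items took all 7 members and the highest and lowest gene of each GO list. A sarcomere GO list was also run, and its genes are not named here. Its 34 genes with promoter signal over the floor had a median ratio of -0.17, against -0.05 over all genes. The interval lay above 0 for 4 and below 0 for 13 of the 34 (13% and 23.8% of all genes). Terms of 1784 genes were not used here. Lists of further markers, fixed as symbols, were replaced by GO lists, and genes with a like pattern were not sought, since 2 libraries give none. Alternatives were other pseudocounts, scaling, centring, floors, folds and windows, and leaving out the strongest peaks; 1 alternative, adding peaks within a gene annotated elsewhere, was chosen after seeing the data.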

Additional observations from a re-analysis of the deposited data

How the results depend on the processing

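No paired analysis was possible because there is 1 library per genotype, and for the same reason no replicate could be left out. With the authors' RPM the summed promoter ratio moved from 0.05 to -0.17 and the summed distal ratio from -0.03 to -0.25, 0 member peaks were 2-fold higher and 1, the Cnn1 peak (-1.13 in the authors' deposited table), was 2-fold lower. The count of 2-fold higher peaks, 1 by the main rule, was 0 with a pseudocount of 2 CPM, 0 with a floor at the median and 0 at 4-fold; at 1.5-fold 2 were higher and 3 lower. It rests on the Tagln start, which lies at the mark. Median ratios ran from -0.15 to 0.12 for promoter peaks and -0.04 to 0.22 for distal peaks in the alternatives run. Both medians were below 0 with the authors' RPM. They stayed within the counting interval of their middle peak, but that wide interval belongs to a single peak and does not measure the stability of a median. Without the strongest peak of each class, Acta2 moved from -0.19 to 0.09 at promoters and from -0.12 to 0.39 at distal peaks, and Tagln from 0.67 to 1.004. Cnn1 (-1.13 to -0.78) and Notch3 promoters (-0.94 to -0.53) stayed below 0, and Tagln promoters (0.46 to 1.004) and distal Myh11 (0.26 to 0.53) above it, in the alternatives run, which reuse the same reads. Between 36 and 253 reads per peak limit the precision of single peaks.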

Other observations

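The peaks around these genes, none of them annotated to a member, included ratios above that of the Tagln start (1.004). The peak nearest upstream of Myh11, with its centre 12596 bp before the start (chr16:14121631-14122033, GRCm39), lies in intron 4 of 4 of ENSMUSG00000022677 and held 18 reads in Wtapflox/flox and 102 in Wtap-CKO. Its log2 ratio was 2.22 (95% counting interval 1.77 to 3.32), which ranked 20 of 62662 peaks over the floor, and it was singled out after its value was seen. The peak over the Myh11 start gave 0.06.

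Around Tagln the neighbours were of both signs. The next peak upstream, with its centre 2366 bp before the Tagln start (chr9:45849472-45849972), held 116 reads in Wtapflox/flox and 76 in Wtap-CKO, a ratio of -0.58 (-1.04 to -0.18), opposite to the Tagln peaks beside it. A peak 18360 bp past the start, annotated to ENSMUSG00000035382, held 42 and 97 reads (1.12, 0.67 to 1.77). Of the 5 neighbours of Notch3, 1 lay below 0 with its whole interval (51 reads in Wtap-CKO against 89, -0.75), at the start of ENSMUSG00000097305, the gene to which the peak over the last Notch3 exon is annotated.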
